A study of Mus musculus with 6 samples.

Results

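The trophoblast markers are 10 genes that are used to recognise the trophoblast, the outer lineage of the early mouse embryo that gives rise to the placenta. They were Cdx2, Eomes, Elf5, Tead4, Tfap2c, Gata3, Krt8, Krt18, Hand1 and Ascl2, taken by gene symbol from the array's annotation. All 10 were measured, each by 1 probe set (the group of probes that reports 1 transcript), out of 19938 named genes. Signals came from 6 single-colour Affymetrix arrays of total RNA from RW4 cells, a mouse embryonic stem cell line, and are log2 values. The 3 groups of 2 arrays were untreated cells, cells with 4-hydroxytamoxifen (4OHT) at 1 µM and cells with Shld1 at 1 µM. All groups were grown on gelatin with serum and leukemia inhibitory factor (LIF), which keeps stem cells undifferentiated, and how long the treatments lasted was not stated in the labels. They give the induction system as WT for the untreated arrays, ERT2 for the 4OHT arrays and FKBP for the Shld1 arrays. ERT2 is a mutated estrogen receptor domain that responds to 4OHT, and destabilised FKBP domains are stabilised by Shld1. Whether any fusion protein was present in these cells is not stated, so an effect of the agent and one of a construct cannot be told apart here. The arrays of a group are called duplicates, with no word on separate cultures, and the p-values measure the spread between these arrays, which may be technical.

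In the blastocyst, TEAD4 with its coactivator YAP switches on Cdx2 and Gata3 in the outer cells, and Cdx2 and the pluripotency factor Pou5f1 repress each other. Cdx2, Eomes, Elf5 and Tfap2c then hold the trophoblast stem cell state, while Hand1 and Ascl2 direct the giant cell and spongiotrophoblast branches. Keratins 8 and 18 form the filaments of simple epithelia, trophectoderm among them. Embryonic stem cells derive from the inner cell mass and keep most of this programme off; for Elf5 a methylated promoter is part of that block.

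Of the 10 markers, 7 lay above the background level and 3 (Cdx2, Elf5 and Gata3) did not, and this split was the same on each of the 6 arrays. The background level was 3.73, the 95th percentile of mean signals among 1015 genes for olfactory receptors, a family with no known role in stem cells. Probe sets differ in affinity, so the level is a rough guide and the signals of different genes are not compared. Most stem cell markers were high on all arrays. Pou5f1 ranged from 10.23 to 10.45, Sox2 from 10.54 to 10.80, Nanog from 10.64 to 10.99 and Zfp42 from 8.61 to 8.89. The stem cell marker Dppa3 was an exception, at 3.41 to 4.14, with a mean signal not above background. In such bulk RNA, few cells with much of a transcript and many cells with little of it cannot be told apart. Signals spread less on 4OHT replicate 1 and on Shld1 replicate 2 than elsewhere (SDs of 2.29 and 2.24 over all probe sets, against 2.33 to 2.35 on the others).

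RefSeq promoter sequences, from 250 bases before to 50 bases after a gene's start, were available for 7 of the 10 markers; those without an entry were Tead4, Tfap2c and Hand1. The 4 sequences printed here belong to a pair of markers not above background, Cdx2 and Elf5, and a pair above it, Krt18 and Krt8. They were chosen because the windows within each pair differ in their number of CpGs. They are written 5′ to 3′ on the gene's strand, build GRCm38.p6, with every CpG dinucleotide in capitals, since CpGs are the sites that DNA methylation acts on.
Cdx2 promoter (chr5:147307200-147307499, minus strand): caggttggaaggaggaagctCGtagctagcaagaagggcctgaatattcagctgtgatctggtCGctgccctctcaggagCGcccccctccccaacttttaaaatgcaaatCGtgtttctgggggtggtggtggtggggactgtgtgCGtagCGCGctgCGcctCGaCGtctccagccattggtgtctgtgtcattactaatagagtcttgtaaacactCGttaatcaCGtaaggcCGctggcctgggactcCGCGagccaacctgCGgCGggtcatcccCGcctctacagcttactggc
Elf5 promoter (chr2:103411848-103412147, plus strand): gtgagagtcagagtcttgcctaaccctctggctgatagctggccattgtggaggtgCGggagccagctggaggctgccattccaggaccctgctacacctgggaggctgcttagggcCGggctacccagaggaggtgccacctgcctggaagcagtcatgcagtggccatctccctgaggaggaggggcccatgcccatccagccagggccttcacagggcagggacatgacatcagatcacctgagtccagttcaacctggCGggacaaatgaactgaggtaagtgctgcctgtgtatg
Krt18 promoter (chr15:102027966-102028265, plus strand): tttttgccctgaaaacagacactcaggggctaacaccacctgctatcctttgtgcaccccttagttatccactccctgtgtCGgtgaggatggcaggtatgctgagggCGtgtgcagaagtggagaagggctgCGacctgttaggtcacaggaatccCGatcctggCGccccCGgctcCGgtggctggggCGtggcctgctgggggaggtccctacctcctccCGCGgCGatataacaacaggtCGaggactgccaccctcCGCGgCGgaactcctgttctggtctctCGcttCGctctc
Krt8 promoter (chr15:102004293-102004592, minus strand): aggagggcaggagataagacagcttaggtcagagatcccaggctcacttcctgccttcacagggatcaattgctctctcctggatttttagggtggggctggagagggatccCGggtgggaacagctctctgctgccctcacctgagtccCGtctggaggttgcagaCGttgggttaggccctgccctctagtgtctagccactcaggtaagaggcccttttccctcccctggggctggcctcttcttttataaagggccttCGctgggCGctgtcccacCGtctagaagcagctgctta

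The Cdx2 window held 18 CpGs and the first Elf5 window 3, and neither gene was above background. The Krt18 window held 17 and the Krt8 window 6, and both genes were above background on all arrays. The median over all 32851 promoter windows of this length was 7 CpGs. The other windows held 22 CpGs for Gata3, 23 for Ascl2, 10 for Eomes and 10 for a second Elf5 start. The core TEAD motif CATTCC, searched on both strands, was found in 1 of the 8 windows, the Elf5 window printed here, and in 14.7% of all windows. The AP-2 motif GCCNNNGGC, bound by TFAP2 factors, was found in the windows of Cdx2, Krt18 and Gata3 and in 16.6% of all windows. A match describes the letters in the window and no methylation or binding was measured here.

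**Figure D1:**
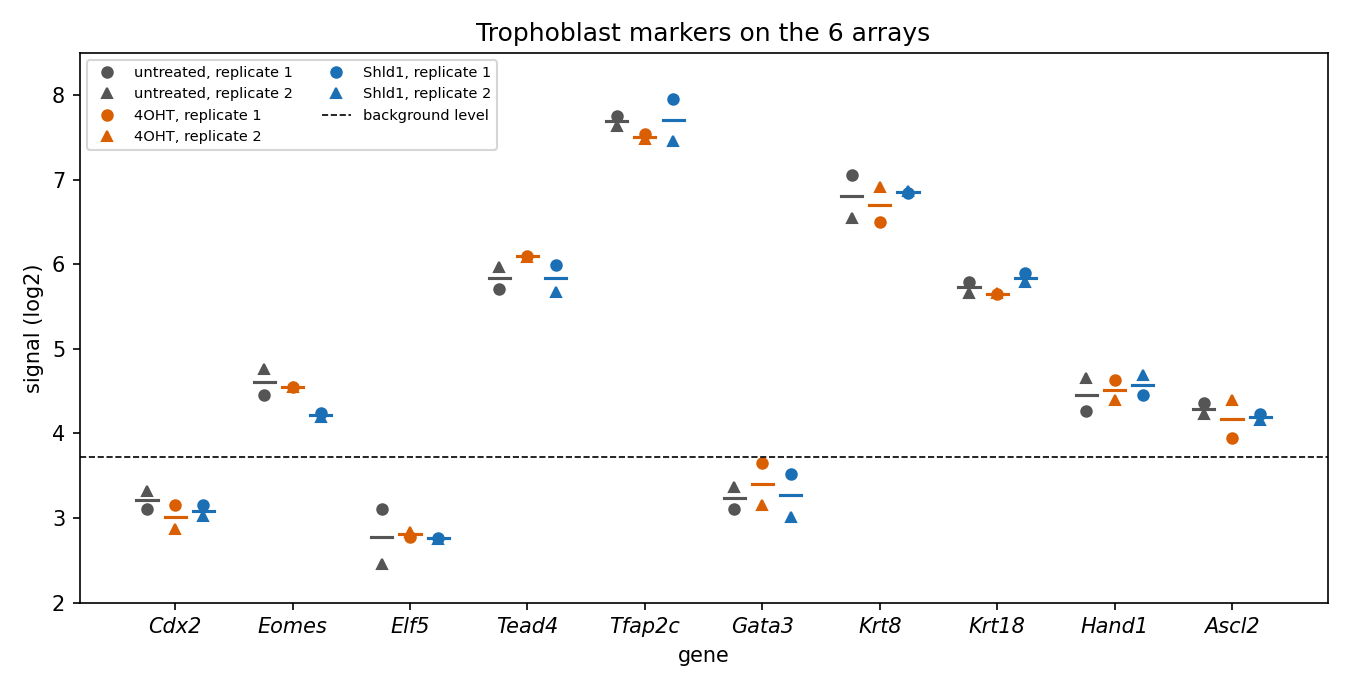
Signal (log2) of the 10 trophoblast markers on each of the 6 arrays; circles are replicate 1, triangles replicate 2, short bars the mean of the 2 arrays of a group, and the dashed line the background level of 3.73. Cdx2, Elf5 and Gata3 lie under the line on all arrays and the other 7 genes above it.

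Tead4, the TEA-domain factor that acts at the top of the trophectoderm programme, was above background in every group. Its signal was 5.71 and 5.96 on the untreated arrays, 6.10 and 6.09 with 4OHT and 5.998 and 5.67 with Shld1. With 4OHT both arrays were higher than the untreated pair, while the Shld1 arrays straddled the untreated ones. The difference with 4OHT was 0.26 (SE 0.16; limma, adjusted p = 0.96), less than the gap of 0.32 between the Shld1 replicates.

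Cdx2, the caudal-type homeobox factor that defines trophectoderm, was not above background. Its signal was 3.11 and 3.32 in untreated cells, 3.16 and 2.87 with 4OHT and 3.15 and 3.02 with Shld1. The groups overlapped in all comparisons. The differences were -0.20 (SE 0.16) with 4OHT and -0.13 (SE 0.16) with Shld1, and the upper ends of their 95% intervals were 0.16 and 0.23, or 1.12-fold and 1.17-fold in signal. Close to background, a signal understates the change of a transcript, so these bounds hold for the signal. Of the olfactory receptor genes, 15.1% had a mean signal at or above that of Cdx2.

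Gata3, a zinc finger factor that acts beside Cdx2, was at 3.11 and 3.37 in untreated cells. It was at 3.66 and 3.16 with 4OHT and at 3.52 and 3.01 with Shld1. The replicates of the treated groups were farther apart (gaps of 0.50 and 0.52) than either group was from untreated cells (0.17 and 0.03). Elf5, an ETS factor that stabilises the trophoblast stem cell state, was at 3.10 and 2.46 in untreated cells, 2.78 and 2.84 with 4OHT and 2.77 and 2.75 with Shld1. All 4 treated arrays fell between the untreated replicates. The gap between those untreated replicates, 0.65, was at least as wide as that of 99.0% of all genes, and 26.0% of the olfactory receptor genes reached the mean signal of Elf5.

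Eomes, a T-box factor of trophoblast stem cells that also marks the primitive streak, had the largest difference among the markers. Its signal was 4.46 and 4.76 in untreated cells, 4.55 and 4.55 with 4OHT and 4.24 and 4.198 with Shld1. Both Shld1 arrays were below all other arrays. The difference from untreated cells was -0.39 (SE 0.15, 95% interval -0.73 to -0.05), with an unadjusted p of 0.0286 and an adjusted p of 0.999 in limma. The difference exceeded the widest replicate gap of Eomes, 0.31, which also held for 12% of all genes in this comparison. Against 4OHT the Shld1 arrays were lower as well (4OHT minus Shld1 0.33, SE 0.15; limma, adjusted p = 0.892). These comparisons share the Shld1 arrays. Only 1.38% of olfactory receptor genes reached the mean Eomes signal.

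Tfap2c, an AP-2 factor used in trophoblast, in germ cells and in stem cells, was well above background. Its signal was 7.75 and 7.64 in untreated cells, 7.54 and 7.49 with 4OHT and 7.96 and 7.46 with Shld1. Both 4OHT arrays were below both untreated arrays, by -0.18 on average (SE 0.18; limma, adjusted p = 0.961). The Shld1 arrays were the highest and the lowest of the 6, with the lower one being replicate 2, the array of narrowest range.

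Hand1, a basic helix-loop-helix factor of trophoblast giant cells that is also used in mesoderm and heart, was at 4.26 and 4.66 in untreated cells. It was at 4.64 and 4.40 with 4OHT and at 4.46 and 4.69 with Shld1, and the groups overlapped throughout. Ascl2, an imprinted helix-loop-helix factor of the spongiotrophoblast, was at 4.36 and 4.23 in untreated cells, 3.94 and 4.40 with 4OHT and 4.23 and 4.16 with Shld1. The Shld1 arrays of Ascl2 were below the untreated ones, with Shld1 replicate 1 and untreated replicate 2 nearly level, and the mean difference was -0.10 (SE 0.17). With 4OHT its replicates were 0.46 apart, replicate 1 being the lowest of the 6 arrays and replicate 2 the highest.

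Krt8 and Krt18 encode the type II and type I partners of one filament and are neighbours in the RefSeq annotation of GRCm38.p6, with 2 long noncoding RNA genes and no protein-coding gene between them. Krt8 was at 7.06 and 6.55 in untreated cells, 6.50 and 6.91 with 4OHT and 6.85 and 6.87 with Shld1. Its untreated replicates were 0.50 apart, a gap at least as wide as that of 96.9% of genes, and spanned the arrays of both other groups except 4OHT replicate 1. Krt18 was at 5.79 and 5.66 in untreated cells, 5.65 and 5.66 with 4OHT and 5.90 and 5.79 with Shld1. It varied least among the markers, over a range of 0.25. Both 4OHT arrays of Krt18 were below all other arrays, with a difference of -0.07 (SE 0.14) from untreated cells and -0.19 (SE 0.14; limma, adjusted p = 0.925) from Shld1.

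**Figure D2:**
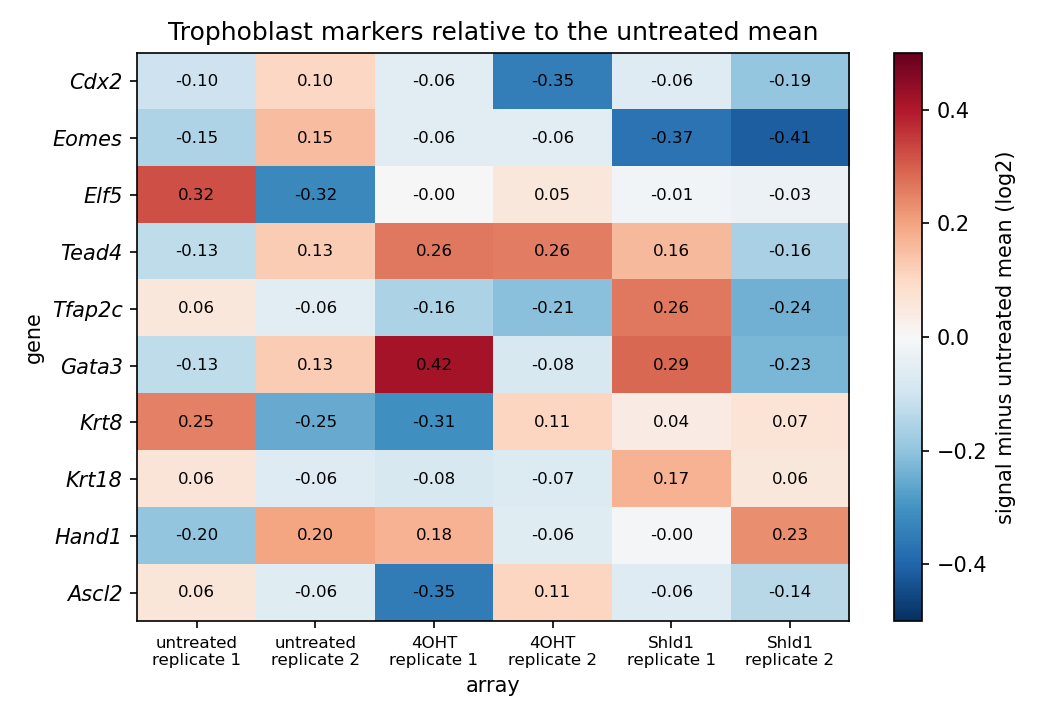
Signal of each marker on each array minus the mean of the 2 untreated arrays (log2; red above, blue below, value in each cell). Only Eomes with Shld1 and Tead4 with 4OHT lay over 0.25 from the untreated mean in the same direction on both replicates.

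With 4OHT, no trophoblast marker passed the test against untreated cells. Limma called 0 of the 10 at an adjusted p under 0.05, and 0% of all 19938 genes; at an unadjusted p under 0.05 it was 0 of the 10 and 4.99% of all genes. The differences ran from -0.20 for Cdx2 to 0.26 for Tead4, and 4 of the markers were higher and 6 lower. Their median was -0.064, against -0.0092 over all genes. Groups did not overlap for 3 markers, against 37.7% of all genes: 1 was higher (Tead4; 17.3% of all genes) and 2 were lower (Tfap2c and Krt18; 20.4%). No marker differed by more than its widest replicate gap, as 13.1% of all genes did. The 95% interval stayed within 2-fold for all 10 (98.8% of all genes) and within 1.5-fold for 8, the exceptions being Tead4 and Gata3 (72.1% of all genes). These intervals are per gene, not adjusted for the number of genes.

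With Shld1, no marker passed either. Limma called 0 of the 10 and 0% of all genes, and at an unadjusted p under 0.05 it was 1 of the 10, Eomes, and 4.34% of all genes. The differences ran from -0.39 for Eomes to 0.12 for Krt18, with 5 markers higher and 5 lower and a median of 0.0063, against -0.0043 over all genes. The Shld1 and untreated arrays did not overlap for 2 markers, Eomes and Ascl2, against 32.5% of all genes. Both were lower, as were 17.3% of all genes, and 0 were higher, against 15.2%. All 10 intervals lay within 2-fold (98.7% of all genes) and 9 within 1.5-fold, Eomes being the exception (74.3% of all genes). Tead4 averaged 5.84 in both groups, and Tfap2c differed by 0.01 (SE 0.18).

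Between the agents at the same dose, limma called 0 of the 10 markers and 0% of all genes, and 0 of the 10 had an unadjusted p under 0.05, against 5.6% of all genes. The arrays did not overlap for 4 markers, against 30.5% of all genes: Eomes, Elf5 and Tead4 were the higher with 4OHT (14.9% of all genes) and Krt18 the lower (15.6%). Elf5 was not above background and differed by only 0.047, its nearest arrays being at 2.779 (4OHT replicate 1) and 2.769 (Shld1 replicate 1). The difference exceeded the widest replicate gap for Eomes and Krt18, as it did for 14.3% of all genes. The median was -0.038, against -0.0043 over all genes. All 10 intervals lay within 2-fold (98.5% of all genes) and 5 within 1.5-fold (71.6%). The 95% interval for Eomes ran from -0.01 to 0.67. The comparisons share arrays: both agents were set against the same untreated pair.

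**Figure D3:**
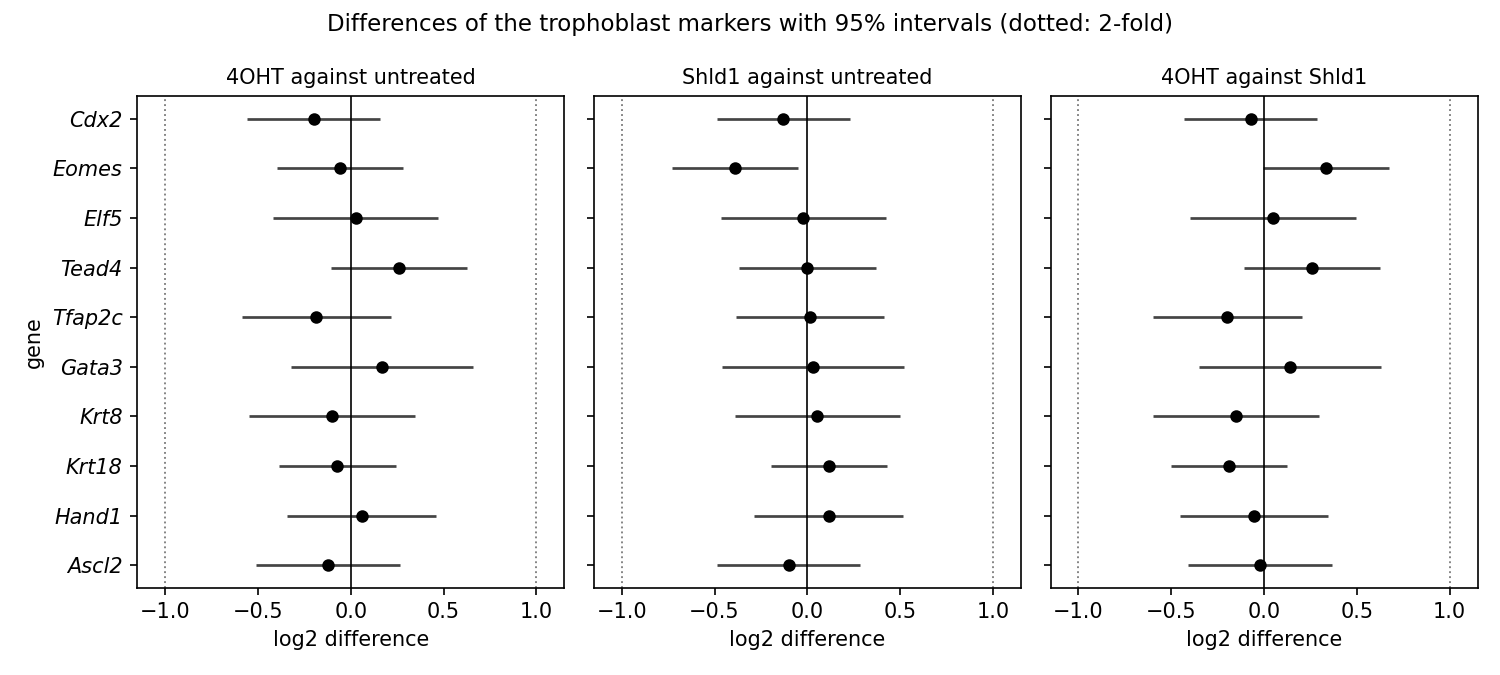
Log2 difference (points) and 95% interval from limma (lines) of each marker in the 3 comparisons; dotted lines mark 2-fold. All 30 intervals stay inside 2-fold, and the interval of Eomes with Shld1 (-0.73 to -0.05) is the 1 that does not include 0.

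Averaged over the 10 markers, the array means stood within 0.05 of the untreated mean on all arrays but Shld1 replicate 2, which was lower by -0.10. That array, the one with the narrowest range, also had the lowest signal for 4 of the 10 markers, and the highest olfactory receptor median (2.57, against 2.31 to 2.40 on the others). Without that array the Eomes difference was -0.37. The part of these values in the other Shld1 differences was not tested. In untreated cells the median gap between replicates was 0.257 over the markers and 0.124 over all genes. With 4OHT it was 0.146 and 0.166, and with Shld1 0.121 and 0.195.

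The genes around the markers were followed in 10 further lists. Their counts at an unadjusted p under 0.05 stand against 4.99% of all genes with 4OHT and 4.34% with Shld1. In the Hippo list, the kinases and coactivators that control TEAD factors, 18 of 20 measured genes were above background and limma called 0 in either comparison with untreated cells; at an unadjusted p under 0.05, 1 gene (5% of the list) was higher with 4OHT, and 2 were higher and 1 lower with Shld1 (15%). The coactivator genes Yap1 and Wwtr1 were at 7.18 to 7.59 and 6.95 to 7.36 over the 6 arrays, with all 4 of their differences between -0.17 and 0.04. Of the other TEAD genes, Tead1 was at 8.52 to 8.88 and Tead3 at 4.46 to 4.79. Tead2 was at 7.24 and 6.96 in untreated cells, 6.78 and 6.84 with 4OHT and 6.76 and 6.78 with Shld1. All 4 treated arrays of Tead2 were below both untreated ones, with differences of -0.29 (SE 0.15) and -0.33 (SE 0.15), which missed the adjusted threshold (limma, adjusted p = 0.96 and 0.999). The median of the Hippo list was -0.029 with 4OHT and -0.055 with Shld1. Of its 20 genes, 11 were lower with 4OHT and 16 with Shld1, against 10401 and 10186 of all 19938 genes. The list mean on Shld1 replicate 2 was 5.63, against 5.74 to 5.80 on the other arrays. Vgll4, a TEAD cofactor, was at 4.28 and 4.48 in untreated cells, 4.68 and 4.74 with 4OHT and 4.65 and 4.81 with Shld1, higher on all 4 treated arrays (0.33 and 0.35, SE 0.15 each). Amotl1, an angiomotin that binds YAP, was at 4.89 and 4.49 untreated and 4.47 and 4.07 with Shld1, the lower on replicate 2. Its difference was -0.42 (SE 0.19), and -0.22 without that replicate. The kinase gene Lats2 was the 1 counted as higher with 4OHT, and it was not above background. It was at 3.37 and 3.10 untreated, 3.74 and 3.49 with 4OHT and 3.51 and 3.69 with Shld1 (0.38 and 0.37, SE 0.16 each). Its relative Lats1, which was above background, went the other way with 4OHT (-0.31, SE 0.14, limma adjusted p = 0.96). Lats1 was at 6.51 and 6.56 untreated, 6.18 and 6.27 with 4OHT and 6.59 and 6.48 with Shld1. With Shld1 the counted genes were Vgll4 and Lats2, both higher, and Amotl1, lower.

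Further genes of the trophoblast stem cell state, many of which embryonic stem cells share, had a median of -0.064 with 4OHT and -0.081 with Shld1 over 20 genes, 19 of them above background and 0 called by limma. At an unadjusted p under 0.05, 1 was higher and 1 lower with 4OHT (10% of the list), and 1 was lower with Shld1 (5%). Fgfr2, the receptor through which FGF4 maintains trophoblast stem cells, was at 4.27 and 4.41 in untreated cells, 3.63 and 3.81 with 4OHT and 3.87 and 4.26 with Shld1. Its difference with 4OHT was -0.62 (SE 0.17; unadjusted p = 0.00452, limma adjusted p = 0.96), and its 4OHT signal of 3.72 was at the background level. Spry4, an inhibitor of FGF signalling, was at 6.42 and 6.30 untreated, 6.77 and 6.89 with 4OHT and 6.31 and 6.28 with Shld1 (4OHT difference 0.47, SE 0.14). Ets2, an ETS factor needed in trophoblast, was at 6.38 and 6.49 untreated, 6.18 and 6.07 with 4OHT, and 6.25 and 5.62 with Shld1. Its Shld1 difference was -0.50 (SE 0.20), with the lower of the pair on replicate 2, the array of narrowest range. Genes of differentiated trophoblast were above background in 8 of 19 cases, and another 6 of that list were not analysed here. The spongiotrophoblast genes Tpbpa and Tpbpb stayed at 1.90 to 2.10 and 1.71 to 2.11 on all arrays, and the placental prolactin Prl8a9 at 1.66 to 2.24. Limma called 0 of the 19 with either agent, and the medians were 0.14 and 0.094. With 4OHT, 3 of the 19 were higher and 1 lower at an unadjusted p under 0.05 (21.1% of the list, against 4.99% of all genes), and with Shld1 0 were (against 4.34% of all genes). Cited2, a transcriptional coregulator, was at 7.14 and 7.24 untreated and 7.80 and 7.47 with 4OHT (0.45, SE 0.16). The others counted as higher were Tfeb (0.46, SE 0.18) and Pparg (0.34, SE 0.14), and Pparg was not above background. Plac8 was at 6.22 and 6.15 untreated and 5.88 and 5.72 with 4OHT (-0.39, SE 0.14).

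Among relatives of the markers by gene family, 16 of 23 measured genes were above background and limma called 0. At an unadjusted p under 0.05, 3 were higher and 1 lower with 4OHT (17.4% of the list, against 4.99% of all genes), and 2 were higher with Shld1 (8.7%, against 4.34%). The 1 counted as lower was Elf3, a relative of Elf5 that was above background. It was at 6.94 and 7.10 untreated, 6.51 and 6.76 with 4OHT and 6.92 and 6.57 with Shld1 (-0.39 with 4OHT, SE 0.17). The AP-2 gene Tfap2a was at 3.53 and 3.48 in untreated cells, 4.18 and 4.13 with 4OHT and 4.08 and 3.91 with Shld1. All 4 treated arrays were above the untreated ones and above the background level, which the untreated arrays were not. Its differences were 0.65 (SE 0.14) and 0.49 (SE 0.14), with unadjusted p-values of 0.00105 and 0.0065 and adjusted p-values of 0.96 and 0.999 in limma. The treated arrays were also above both untreated arrays, with either agent, for Tfap2b, Tfap2d and Tfap2e. Taking each agent alone, they were for 17.3% of all genes with 4OHT and 15.2% with Shld1. How many genes were higher with both agents was not counted. Tfap2b, named after its values were seen, was at 2.54 and 2.61 untreated, 2.80 and 3.01 with 4OHT and 2.71 and 2.93 with Shld1 (0.33 and 0.25, SE 0.15 each). Tfap2d was at 2.86 and 2.80, then 3.403 and 3.003, then 3.07 and 3.09 in the same order (0.37 and 0.25, SE 0.16 each). Tfap2e, the one of them above background, was at 4.34 and 4.51, then 4.78 and 4.71, then 4.56 and 4.55 (0.32 and 0.13, SE 0.14 each). The remaining AP-2 gene, the marker Tfap2c, went the other way with 4OHT, both arrays being below the untreated pair (-0.18, SE 0.18). Its Shld1 arrays lay on either side of that pair. These comparisons share the untreated arrays. Of the other CDX genes, Cdx1 was at 4.26 to 4.73 and Cdx4 at 1.59 to 2.05, below background. Gata2, the trophoblast partner of Gata3, was at 4.73 to 5.17, with differences of 0.11 and 0.10 (SE 0.18 each). The T-box gene Tbr1 was at 2.80 and 2.63 untreated and 3.13 and 3.75 with Shld1, where replicate 2 alone reached the background level. Its difference was 0.72 (SE 0.20), and 0.41 without that replicate.

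**Figure D4:**
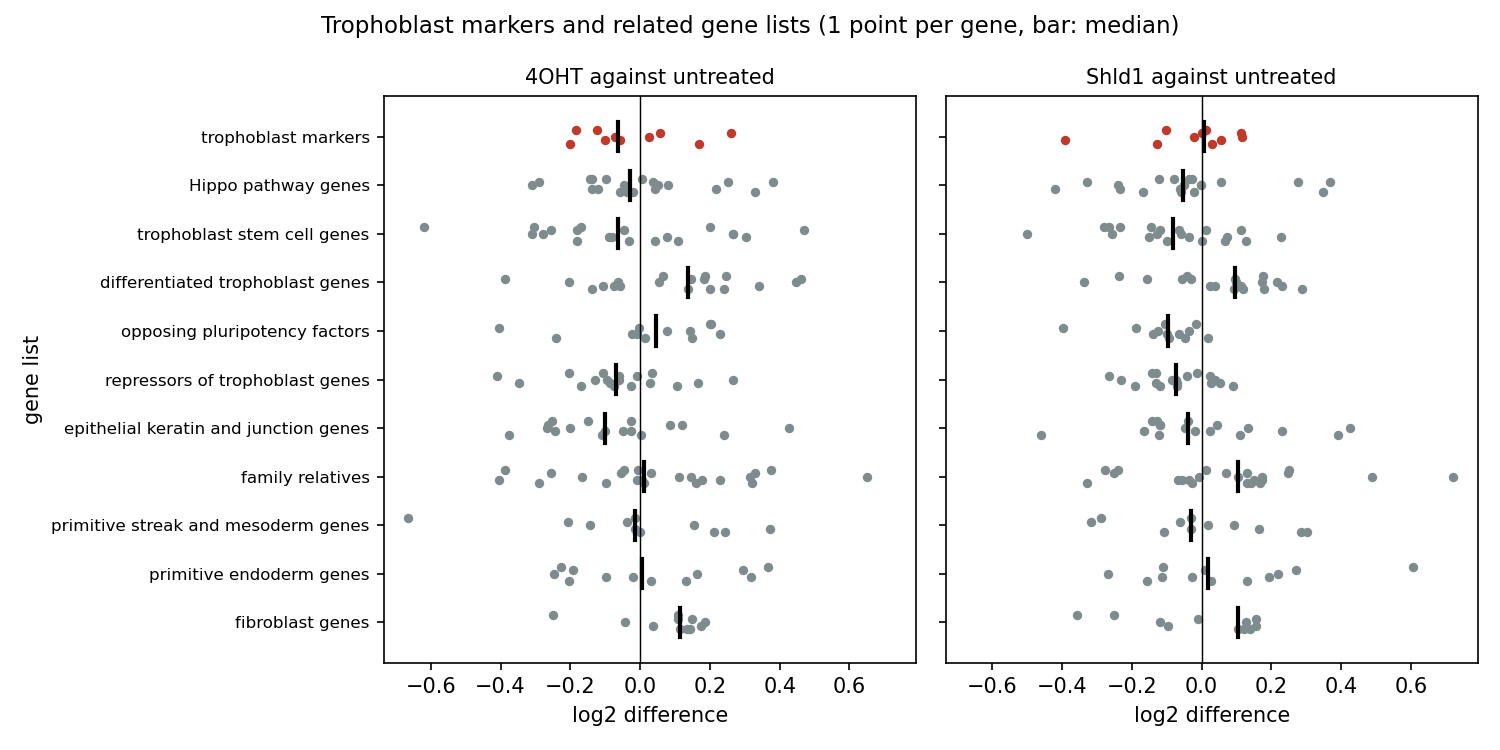
Log2 differences from untreated cells with 4OHT (left) and Shld1 (right) for the trophoblast markers (red) and the 10 related lists (grey), 1 point per gene with the list median as a bar. The marker medians are -0.064 and 0.0063, and no gene shown passed the adjusted threshold.

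In the lists of pluripotency factors, repressors and epithelial genes limma called 0 genes with either agent. At an unadjusted p under 0.05 there were 1, 2 and 1 genes with 4OHT (8.33%, 11.1% and 5.88% of the lists) and 0, 0 and 2 with Shld1 (11.8% of the last). The pluripotency factors had medians of 0.046 with 4OHT and -0.096 with Shld1 over 12 genes. Not all of them need oppose the trophoblast programme, and Sox2 was also in the trophoblast stem cell list. With Shld1, 11 of the 12 were lower, against 10186 of all 19938 genes. Shld1 and untreated arrays did not overlap for 3 of the 12 (25%, against 32.5% of all genes). The list mean on Shld1 replicate 2 was 8.56, against 8.73 to 8.81 on the other arrays. The gene counted with 4OHT was Dppa3 (-0.41, SE 0.18), which was not above background. The list of repressors of trophoblast genes held DNA methyltransferases, Polycomb and other silencing genes, and also the DNA demethylation genes Tet1 and Tet2. All 18 genes were above background, with medians of -0.068 and -0.073. In that list Dnmt3l, a cofactor of DNA methylation, was at 6.33 and 6.28 untreated, 5.92 and 5.87 with 4OHT and 6.22 and 5.86 with Shld1 (-0.41 with 4OHT, SE 0.16, limma adjusted p = 0.96). The other gene counted with 4OHT was the methyltransferase gene Dnmt3a, also lower. Dnmt3a was at 7.28 and 7.40 untreated, 6.85 and 7.13 with 4OHT and 7.33 and 7.45 with Shld1 (-0.35 with 4OHT, SE 0.15, limma adjusted p = 0.96). Dnmt1, which maintains methylation, ranged from 8.29 to 8.48. Of the other epithelial genes, 14 of 17 were above background and the medians were -0.10 and -0.039. Cdh1, the gene of E-cadherin, was at 8.83 and 8.77 untreated, 8.59 and 8.51 with 4OHT and 8.72 and 8.59 with Shld1. Cldn7, a tight junction gene, was at 6.84 and 6.42 untreated, 6.28 and 6.22 with 4OHT and 6.32 and 6.02 with Shld1. Its differences were -0.38 and -0.46 (SE 0.18 each), and -0.16 and -0.25 without untreated replicate 1. The epithelial gene counted with 4OHT was the keratin Krt14, which was not above background. With Shld1 the counted genes were Cldn7, lower, and Krt14, higher. Krt14 was at 3.38 and 3.27 untreated, 3.94 and 3.57 with 4OHT and 3.60 and 3.90 with Shld1 (0.43 and 0.42, SE 0.17 each). The trophoblast keratin Krt7 ranged from 3.32 to 4.17 and Krt19 from 3.36 to 3.95, both around the background level.

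Markers of other cell types that also use some of these genes were checked on the same arrays. Of the 11 measured primitive streak and mesoderm genes, 5 were above background, and the list mean ran from 3.61 to 3.73 in untreated cells, 3.56 to 3.76 with 4OHT and 3.61 to 3.73 with Shld1. All 12 primitive endoderm genes were above background, with list means of 5.86 to 5.94; Gata4 was at 6.09 to 6.26 and Gata6 at 6.45 to 6.68. The 11 fibroblast genes had list means of 3.69 to 3.90, with 6 of them above background. Limma called 0 genes of these lists with either agent, and at an unadjusted p under 0.05 there was 1 streak gene with 4OHT, Msx2, and 1 fibroblast gene with Shld1, S100a4 (9.09% of either list). Msx2 was at 4.96 and 5.15 untreated and 4.58 and 4.201 with 4OHT (-0.66, SE 0.17). S100a4 was at 3.079 and 3.142 untreated and 2.89 and 2.62 with Shld1 (-0.36, SE 0.15). Their part in the signals of Eomes, Hand1, Krt8 and Krt18 was not tested.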

How the data were processed

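Per the labels, biotin-labelled total RNA was hybridised to single-colour Affymetrix arrays. The deposited log2 values (35556 probe sets, 6 arrays) were used as the authors gave them; background correction, summarization and normalization are not given in the sources used here, and limma 3.14 appears in the submitters' processing notes with no role given. Probe sets with exactly 1 symbol in the platform annotation were named (21789), 21698 of them through a current Entrez record, and the brightest per gene over all arrays was kept, giving 19938 genes.

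Differences came from limma 3.58.1 (R 4.3.3), fitted to all 6 arrays with 1 coefficient per group (3 residual degrees of freedom, 6.77 added by moderation), two-sided, and adjusted by Benjamini-Hochberg over all genes. An exact permutation test of 2 arrays against 2 cannot go below p = 0.333 and was not used. With 2 arrays per group, precision is limited. Values are log2 signals per array, or ranges over arrays. The fit was tested on simulated data. The members, the 10 other lists and the alternatives were chosen with earlier results of these data known. Named genes were the members, up to 3 genes per list and comparison by smallest p, and a fixed set of relatives. Others were chosen after their values were seen (Tfap2b, Elf3, Dnmt1, Cdh1, Tpbpa, Tpbpb, Prl8a9, Pparg). Promoters came from RefSeq (GRCm38.p6).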

Additional observations from a re-analysis of the deposited data

How the results depend on the processing

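No trophoblast marker was called in any comparison under the 18 other settings tried; the smallest adjusted p of a marker was 0.37 (limma), and the 7 markers above background stayed 7 under the 5 scalings and probe set choices tried. Of the 30 differences (10 markers, 3 comparisons), 12 kept their sign under all of these settings, among them Eomes with Shld1 (-0.54 to -0.24) and Tead4 with 4OHT (0.13 to 0.39). Where the arrays of the groups do not overlap, as in both of these, leaving out 1 array cannot change the sign. For those settings a kept sign therefore only restates the separation of the arrays. None of the other differences was called. Leaving out the dimmest 40% of genes removed the 3 markers below background. With an intensity trend, 1 gene was called between the agents, and no marker. The median of the markers with 4OHT was -0.019 with arrays centred on the 75th percentile, against -0.064. Without both arrays of narrower range the median between the agents was 0.0057, against -0.038. Leaving out 1 array at a time, the medians ran from -0.12 to -0.036 with 4OHT, from -0.15 to 0.019 with Shld1, and from -0.088 to 0.040 between the agents; the lowest Shld1 value came without Shld1 replicate 1, and the cause was not tested.

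Same-numbered arrays showed little sign of deviating together (correlations across genes of 0.05, -0.08 and -0.19), and the main fit did not pair them. The last value, for 4OHT with Shld1, is negative, and its cause was not tested. With the replicate number as a block 0 markers and 0 genes were called and the medians were the same (-0.064, 0.0063 and -0.038). A crossed pairing of the 4OHT and Shld1 arrays, added after seeing the data, called 7 genes and 0 markers; the values of Tbr1, Amotl1 and Cldn7 without 1 array were also chosen after seeing the data. Groups of 2 arrays and the nearness of 3 markers to background limit what can be seen.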
